A study of Mus musculus with 32 samples.

Results

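The miR-297, miR-466, miR-467 and miR-669 families were followed through small RNA libraries of mouse peritoneal extracellular vesicles (EVs) and ovarian tissue. Members were every mouse miRNA in the table whose name begins with one of these 4 family numbers followed by a letter or a hyphen, which gave 74 of 1513 miRNAs. They were 6 miR-297, 30 miR-466, 13 miR-467 and 25 miR-669 members. EVs were collected with cellulose nanofiber (CNF) sheets, which take up EVs when laid on a moist organ surface. The unit was reads per 1000000 miRNA-assigned reads (RPM), in 32 libraries of 8 groups.

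All mice were female BALB/cSlc-nu/nu animals, an athymic nude strain that lacks mature T cells, bought at 8 weeks of age. Tumors came from ID8-T6, a peritoneally metastatic subclone of ID8, a mouse ovarian cancer line derived from the ovarian surface epithelium of C57BL/6 mice, so that all tumor cells descend from 1 line of another strain. In the intraperitoneal (IP) experiment the groups were pelvic CNF sheet EVs of mice given ID8-T6 intraperitoneally and sacrificed on day 14 (3 libraries), the same EVs of normal mice given PBS (3), tumor tissue (3) and normal tissue (3), which the study names as ovary. In the orthotopic (OT) experiment ID8-T6 was placed in the left ovarian bursa, and CNF sheet EVs were taken from the liver surface on day 4 (5) and day 0 (5) and from the pelvis on day 4 (5) and day 0 (5). The labels call the liver surface site diaphragm. The labels do not say whether replicates of a group were separate animals. The study's reporting summary states that sequencing replicates were taken 3 times at the same spot, without naming the samples. The p-values then measure the spread between these libraries, which may be technical.

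miRNAs are short RNAs that lead Argonaute proteins to messenger RNAs, chiefly by pairing through the seed, bases 2 to 8. Each is cut from a hairpin, and the RNA of its 5′ arm (5p) or 3′ arm (3p) can be kept. The 4 families form a large rodent-specific array in an intron of Sfmbt2, a Polycomb group gene that is expressed from the paternal allele in extraembryonic tissues of the mouse, and the cluster is known for its high level in embryonic stem cells and placenta. In a sample of many cells, fewer cells of a type and less RNA per cell cannot be told apart.

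In the GENCODE M21 annotation of GRCm38, the members had 81 hairpins. Of these, 71 lay on the same strand within an intron of Sfmbt2 (chromosome 2, 10370510 to 10595253), in a stretch of 51.6 kb from 10466663 to 10518279. The other 10 lay on chromosomes 3, 5, 7, 9, 10, 11 and 13. Mir466i is one of them, at 17747473 to 17747593 on chromosome 13, in an intron of Cdk13 on the opposite strand. By hairpin, 60 members came from Sfmbt2 alone, 9 from elsewhere alone and 5 from both. Many hairpins repeat: Mir669a has 12 copies, Mir467a 10 and Mir466b 8, while Mir669c has 1 (chromosome 2, 10509296 to 10509404). How reads that match several near-identical miRNAs were assigned is not given in the sources used here, so values of closely related members are uncertain against each other.

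RefSeq (GRCm38.p6) gave a mature sequence for 8 of the 74 members. All 8 come from hairpins outside Sfmbt2 and none is a miR-297, so they do not stand for the Sfmbt2 array. Of them 5 are shown for their repeat letters, with the seed in capitals.
miR-466i-3p: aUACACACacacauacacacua
miR-467f: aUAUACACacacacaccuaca
miR-467g: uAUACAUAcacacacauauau
miR-466k: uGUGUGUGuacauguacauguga
miR-467h: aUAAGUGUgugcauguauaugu
The first 3 hold ACACAC and the others UGUGUG, with unbroken alternating runs of 7 to 12 bases. Searched as written on the mature RNA strand, ACACAC stood in 11 of 1679 mature mouse miRNAs in RefSeq (0.655%), of which 4 were members, and UGUGUG stood in 28 (1.67%), of which 4 were members. All 8 members had different seeds, and miR-467h shared its seed UAAGUGU with 1 other miRNA, miR-668-5p. miR-466i-3p lies at chromosome 13, 17747552 to 17747573 on the plus strand.

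A promoter window of Sfmbt2 (the more CG-rich of 2 in RefSeq) is shown because 60 of the 74 members have their hairpins in this gene alone. In tissue 46 of the 50 members with reads had a lower mean in tumors, where 52.7% of all miRNAs with reads did. A link between the window and these levels was not tested. The window lies at chromosome 2, 10372186 to 10372485 (plus strand, GRCm38.p6, RefSeq), and has CG in capitals.
Sfmbt2 promoter: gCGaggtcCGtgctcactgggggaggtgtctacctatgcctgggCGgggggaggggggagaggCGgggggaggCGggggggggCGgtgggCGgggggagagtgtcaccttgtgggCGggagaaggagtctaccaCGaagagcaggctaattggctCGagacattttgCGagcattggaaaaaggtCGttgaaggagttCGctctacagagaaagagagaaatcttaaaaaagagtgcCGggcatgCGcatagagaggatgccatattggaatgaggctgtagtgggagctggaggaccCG
It held 16 CG steps, a motif that reads the same on both strands, at 60% G+C and an observed over expected CG ratio of 0.748. Of all mouse promoter windows of the same length, 33.0% held as many, and the median was 7. RefSeq gives a second window for the gene, not printed, nearer the gene start above (10370201 to 10370500), with 9 CG steps, a ratio of 0.392 and 45.8% of windows with as many. Neither methylation nor the primary transcript was measured.

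The members were rare in these libraries. Together they took 7439 reads over 32 libraries that held 132483 to 2540577 reads each, in detail 483705 to 1585807 in the IP experiment, 132483 to 661582 on OT day 4 and 1022869 to 2540577 on OT day 0. Reads were seen for 71 members, 4 of them in all 32 libraries (miR-467a-5p, miR-467e-5p, miR-669c-5p and miR-669o-3p), and for 3 none (miR-466o-3p, miR-669d-3p and miR-669n). A group mean of 10 RPM or more was reached by 13 members in at least 1 group and by 0 in all 8 groups. These 13 held 70.98% of the member reads and the leading 3 held 30.2%. The value just inside was 10.1 RPM for miR-467d-5p in liver surface EVs on day 4, and the one just outside 8.89 RPM for miR-467a-3p in the same group. Of the rest, 39 had a highest group mean of 1 to 10 RPM and 22 of under 1 RPM. A single read was worth 7.55 RPM in the shallowest library, so most members were at the level of a few reads.

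The summed level of the families was lower in both tumor groups of the IP experiment. The 74 members added up to 103, 122 and 153 RPM in CNF sheet EVs of tumor-bearing mice, against 259, 309 and 178 RPM in CNF sheet EVs of normal mice. The means were 126 ± 25.4 and 249 ± 66.3 RPM (SD, n = 3 each), a ratio of 0.507, and the groups did not overlap. In tissue the sum was 52.3, 49.6 and 67.0 RPM in tumors, against 217, 204 and 228 RPM in normal tissue. The means were 56.3 ± 9.37 and 216 ± 12.2 RPM (SD, n = 3 each), a ratio of 0.260, again without overlap. Sums over members are descriptions, and no test was made of them. In tumor-bearing mice the EVs held 2.24 times the sum of the tumors, without overlap, whereas EVs and ovary of normal mice overlapped on the RPM scale.

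The OT groups overlapped each other in this sum. Liver surface EVs had 447, 583, 312, 281 and 152 RPM on day 4, against 346, 284, 111, 342 and 408 RPM on day 0. Pelvic EVs had 322.8, 370, 264, 171 and 179 RPM on day 4, against 188, 328, 273, 280 and 235 RPM on day 0. The means were 355 ± 165 and 298 ± 113 RPM at the liver surface and 261 ± 87.5 and 261 ± 52.4 RPM in the pelvis (SD, n = 5 each, day 4 first). By a tag in the names of their data columns, the OT libraries fell into 2 sets, called library series here. Replicates 1, 3 and 4 were in one and 2 and 5 in the other. What the tag stands for is not stated, and a set need not be 1 sequencing run. Within these sets the ratio of day 4 to day 0 was 1.302 and 1.06 at the liver surface and 1.02 and 0.974 in the pelvis. No level was compared between the IP and OT experiments by a test.

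**Figure D1:**
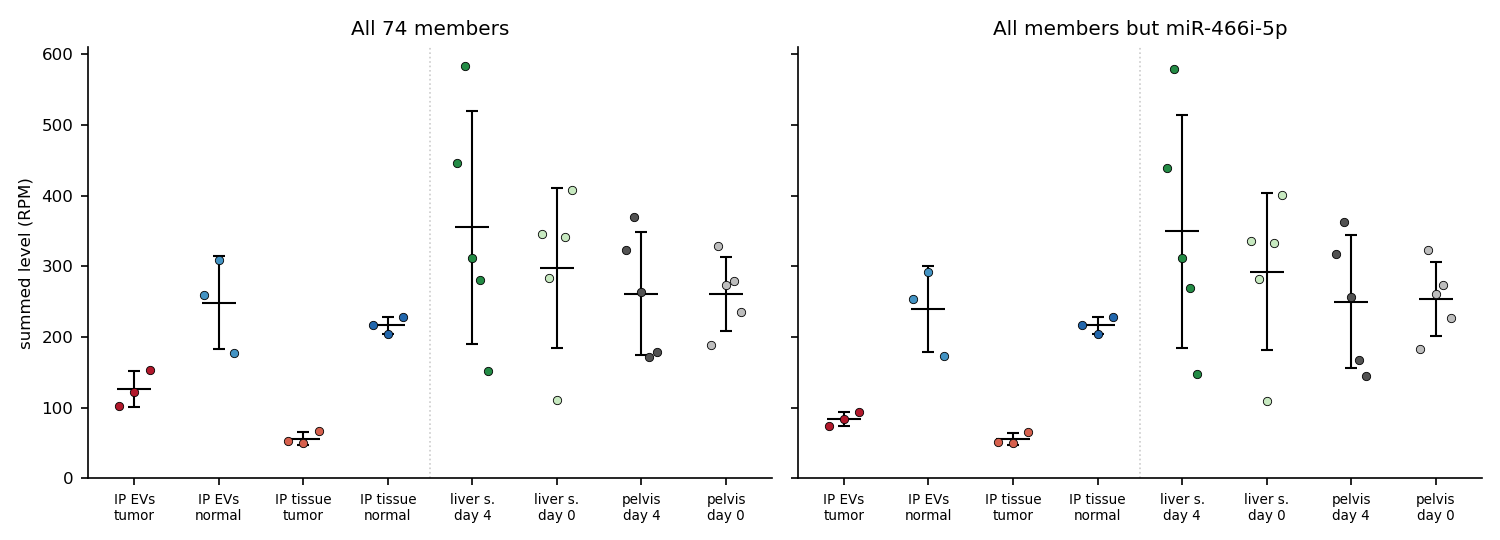
Summed RPM of all 74 members and of all but miR-466i-5p in each library (points), by group, with the mean and SD (bars). Without miR-466i-5p the EVs of tumor-bearing mice sit between 73.8 and 94.4 RPM, below the 173 to 292 RPM of normal mice.

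In EVs the lower sums ran through 3 of the 4 families. miR-467 members added up to 30.8 ± 5.78 RPM in EVs of tumor-bearing mice and 88.8 ± 21.96 RPM in those of normal mice, a ratio of 0.347. miR-669 members gave 35.2 ± 4.87 and 105 ± 28.01 RPM in the same EVs, a ratio of 0.335. miR-297, the scarcest family, gave 1.58 ± 0.880 and 8.90 ± 0.933 RPM, a ratio of 0.177 on 6 and 22 reads (SD, n = 3 each). None of these groups overlapped.

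The miR-466 family did not share this in EVs. Its members added up to 43.5, 55.3 and 77.1 RPM in EVs of tumor-bearing mice, against 41.3, 65.4 and 30.7 RPM in those of normal mice, and these overlapped. The difference lay in 1 member, miR-466i-5p, which took 28.2% to 38.4% of all member RPM in the EVs of tumor-bearing mice, against 2.20% to 5.41% in those of normal mice. The other 29 miR-466 members added up to 16.7 ± 1.93 and 36.8 ± 11.4 RPM, a ratio of 0.454 without overlap. This list was formed after its values were seen.

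In tissue, miR-466 was 10.1 ± 5.75 RPM in tumors and 31.7 ± 2.42 RPM in ovaries, a ratio of 0.320. miR-467 was 18.9 ± 9.83 and 86.1 ± 7.18 RPM, a ratio of 0.219, and miR-669 was 23.9 ± 4.49 and 91.2 ± 6.82 RPM, a ratio of 0.262 (SD, n = 3 each). Tumors and ovaries did not overlap in these 3 families. They overlapped in miR-297, at 3.38 ± 2.48 and 7.29 ± 2.00 RPM.

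By location, the 60 members with hairpins in Sfmbt2 alone added up to 77.5 ± 8.41 RPM in EVs of tumor-bearing mice and 226 ± 57.0 RPM in those of normal mice, and to 52.5 ± 8.55 RPM in tumors and 208 ± 9.87 RPM in ovaries. The 9 members from other loci, miR-466i-5p among them, gave 46.3 ± 16.3 and 18.2 ± 13.3 RPM in the EVs and 3.83 ± 1.53 and 6.34 ± 2.92 RPM in the tissues (SD, n = 3 each), with overlap in both. This split was also made after the values were seen.

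In the OT experiment the family means did not separate the groups. miR-669 was the leading family in all 4 groups, at 140 ± 62.9 RPM on day 4 and 131 ± 55.4 RPM on day 0 at the liver surface and at 104 ± 34.1 and 107 ± 27.3 RPM in the pelvis (SD, n = 5 each). miR-467 came next at 75.6 to 120 RPM, miR-466 at 45.5 to 76.1 RPM and miR-297 at 8.87 to 18.6 RPM. Every pair of groups overlapped in every family.

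**Figure D2:**
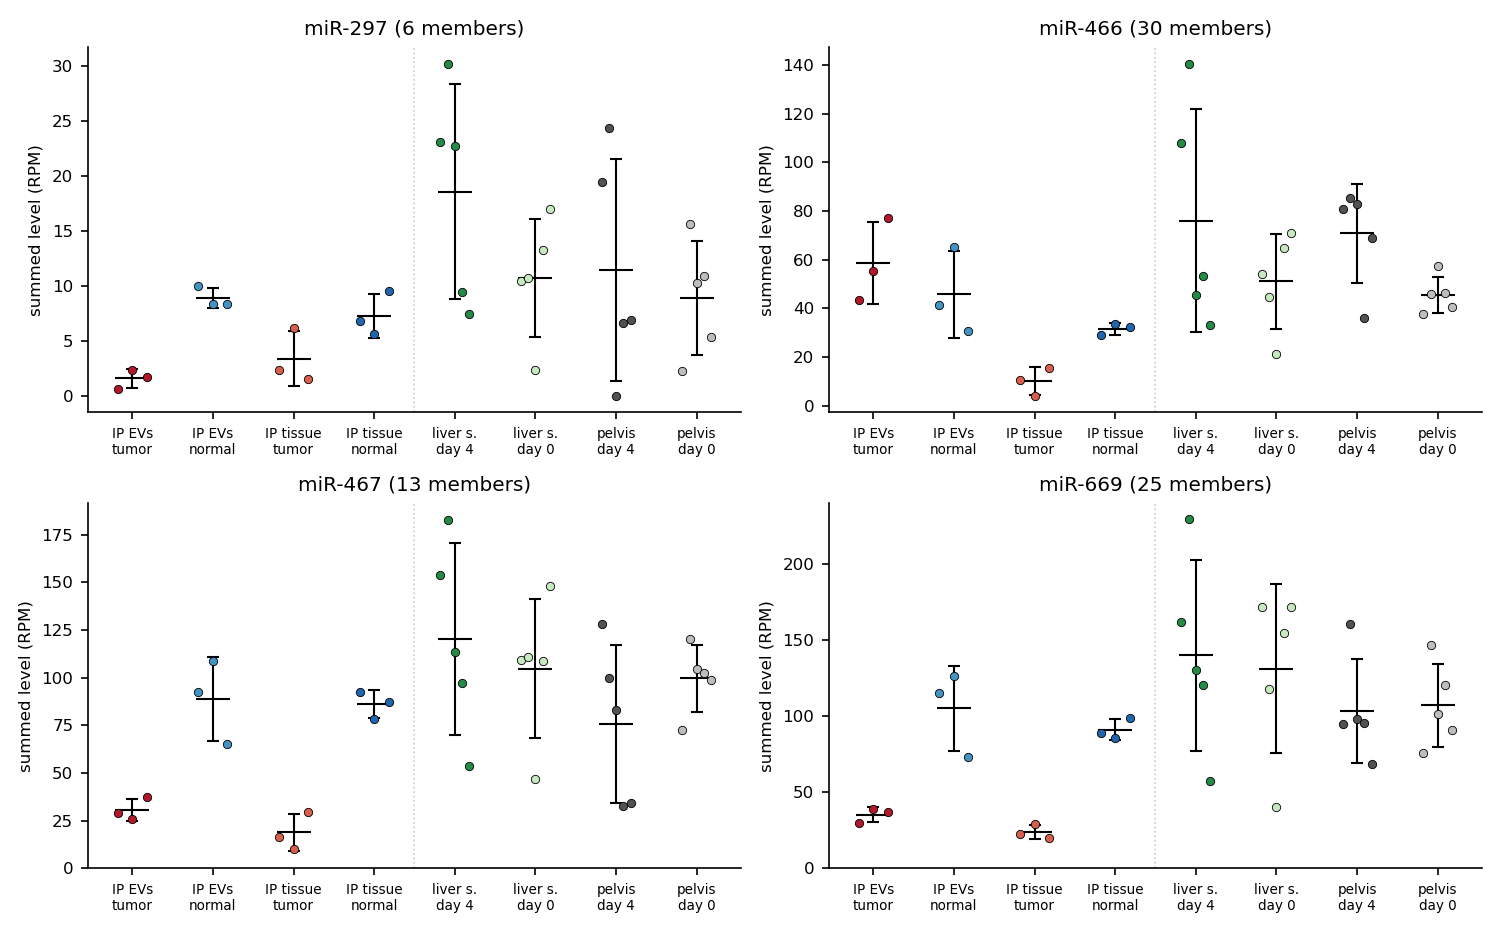
Summed RPM of each of the 4 families in each library (points), by group, with the mean and SD (bars). miR-297, miR-467 and miR-669 are lower without overlap in EVs of tumor-bearing mice than in those of normal mice, and miR-466 overlaps there.

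Among single members, miR-467a-5p had the highest mean over all libraries, 30.6 RPM, and reached 10 RPM in 7 of 8 groups. miR-669c-5p and miR-467e-5p reached it in 6 groups. miR-669o-3p, miR-669a-3p, miR-467c-5p, miR-669p-5p and miR-669a-5p reached it in 5 groups, with highest group means of 27.8, 24.9, 16.4, 14.98 and 12.5 RPM. miR-467d-3p reached 10 RPM in 4 groups, miR-466i-5p and miR-466d-3p in 2, and miR-466i-3p and miR-467d-5p in 1. Of these 13 members, 2 (both arms of miR-466i) come from outside Sfmbt2.

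Between groups, 12 of the 74 members reached 10 RPM in pelvic EVs and 11 in liver surface EVs on day 4, against 8 and 9 on day 0. In the IP experiment 2 members reached it in EVs of tumor-bearing mice, against 8 in those of normal mice, and 0 in tumors, against 4 in ovaries. With 10 RPM asked of every library, the OT counts were 1 (pelvis) and 3 (liver surface) on day 4, against 2 and 1 on day 0. In the IP experiment they were then 2 against 4 in EVs and 0 against 3 in tissue. Day 4 libraries were shallower, and the share of all miRNAs at 10 RPM was not counted, so these counts are descriptions. The members among the leading 4 of their family that stayed under 10 RPM were miR-466c-5p (highest group mean 6.76 RPM, liver surface EVs on day 4), miR-297b-3p (5.87 RPM, same group), miR-297c-3p (4.81 RPM, same group), miR-297b-5p (4.16 RPM, same group) and miR-297a-3p (3.01 RPM, liver surface EVs on day 0).

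**Figure D3:**
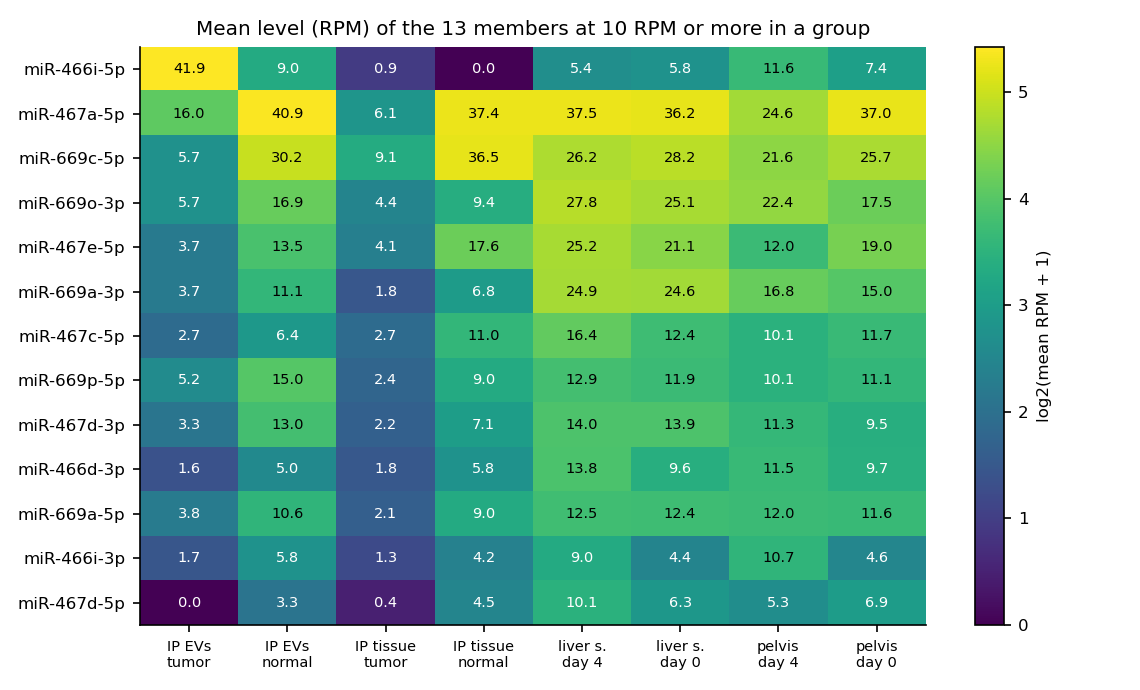
Mean RPM of the 13 members that reach 10 RPM in at least 1 group (rows) in the 8 groups (columns), with colour on the log2(mean + 1) scale and the mean printed. miR-466i-5p is the one row whose highest mean, 41.9 RPM, is in EVs of tumor-bearing mice.

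The first comparison asked how EVs on the pelvic peritoneum differ between tumor-bearing and normal mice. miR-466i-5p rose and miR-669c-5p fell. miR-466i-5p had 29.0, 37.9 and 58.9 RPM in EVs of tumor-bearing mice, against 5.70, 16.7 and 4.65 RPM in those of normal mice, 4.65-fold by the means of 162 and 21 reads. All libraries of tumor-bearing mice lay above those of normal mice.

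On the log2(RPM + 10) scale the difference was 1.46 (SE 0.316), with an adjusted p of 0.00576 in limma over all miRNAs tested. A call needed an adjusted p under 0.05 and a log2 difference of more than 1 in size. miR-669c-5p, from the single Mir669c hairpin in Sfmbt2, had 3.78, 4.74 and 8.66 RPM in EVs of tumor-bearing mice, against 25.7, 33.4 and 31.6 RPM in those of normal mice. Here every library of tumor-bearing mice was lower, with a log2 difference of -1.36 (SE 0.185, limma adjusted p = 0.000699).

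Of 74 members, 5 passed the filter of 10 RPM in at least 3 libraries. Of these, 1 was called higher, where 16.1% of the 378 miRNAs tested were, and 1 was called lower, where 36.0% were. The other 3 had adjusted p-values below 0.05 in limma and log2 differences short of 1 in size. miR-467a-5p had 14.5, 13.4 and 19.9 RPM in EVs of tumor-bearing mice, against 51.3, 47.3 and 24.2 RPM in those of normal mice. Its difference was -0.94 (SE 0.276, limma adjusted p = 0.0217), and it passed the fold threshold without the third library of normal mice (-1.20) or of tumor-bearing mice (-1.04). miR-669o-3p was at -0.75 (SE 0.179, adjusted p = 0.00874 in limma) and miR-669p-5p at -0.71 (SE 0.154, adjusted p = 0.00576 in limma). By the means in RPM, miR-669o-3p was 2.94-fold lower in tumor-bearing mice (5.73 against 16.9 RPM). By the same measure miR-669p-5p was 2.89-fold lower (5.18 against 14.98 RPM) and miR-467a-5p 2.57-fold lower. The added 10 RPM shrank these differences, and with 1 RPM added all 5 tested members were called. The filter bore on these directions. miR-669c-5p, miR-669o-3p and miR-669p-5p passed it through EVs of normal mice alone, and miR-466i-5p chiefly through those of tumor-bearing mice.

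Without a filter, 57 of the 74 members had reads in these EVs, of which 46 (80.7%) had a lower mean in tumor-bearing mice and 11 a higher one. Over all 1513 miRNAs, 1064 had reads, of which 626 (58.8%) had a lower mean and 438 a higher one. Members whose groups did not overlap numbered 18 lower (24.3% of 74), against 17.2% of all miRNAs, and 2 higher (2.70%), against 8.66%. Scaling by the median of ratios, which shifted the median difference over the tested miRNAs to -0.04 where it was -0.53 on the RPM scale, left 12 lower and 3 higher members without overlap. Over all 1513 miRNAs it left 194 lower and 197 higher. It also turned the overlapping miR-466 sum into one higher without overlap, with a ratio of 1.94, while the sums of all members, miR-467 and miR-669 stayed lower at 0.769, 0.526 and 0.512.

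The second member higher without overlap was miR-669c-3p, the other arm of the hairpin of miR-669c-5p, named after its values were seen. It had 1.89, 7.90 and 6.06 RPM in EVs of tumor-bearing mice, against 1.43, 1.39 and 0 RPM in those of normal mice, on 20 and 2 reads. A fit with no filter gave a log2 difference of 0.46 (SE 0.172, limma adjusted p = 0.0817), so it was not called. The ratio of the 5p to the 3p arm of miR-669c was 1.08 in EVs of tumor-bearing mice and 32.2 in those of normal mice. For miR-466i the ratio ran the other way, 24.2 and 1.57, as its 3p arm had 7 reads in EVs of tumor-bearing mice and 13 in those of normal mice. The arm ratios are descriptions on few reads.

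**Figure D4:**
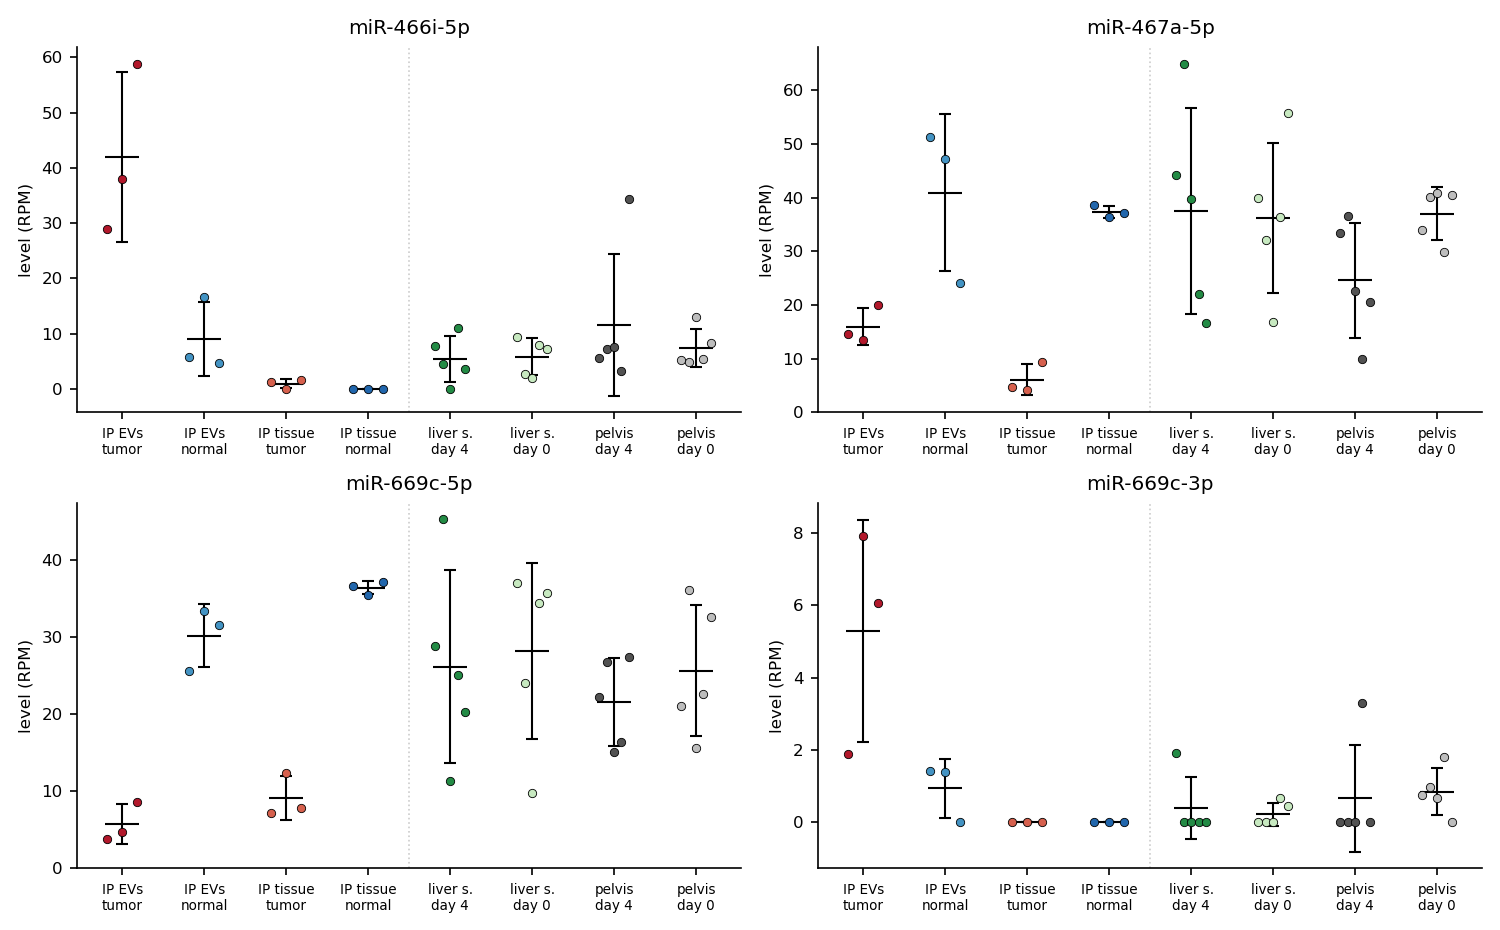
RPM of miR-466i-5p, miR-467a-5p, miR-669c-5p and miR-669c-3p in each library (points), by group, with the mean and SD (bars). miR-466i-5p stands at 29.0 to 58.9 RPM in EVs of tumor-bearing mice and at most at 34.4 RPM in any other library.

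Marker miRNAs of other cell types were summed in the same EVs, and those of leukocytes, epithelium and muscle were lower without overlap in tumor-bearing mice. Summed leukocyte markers (4 miRNAs, miR-142a, miR-223 and miR-150 arms) were 3830 to 4082 RPM in EVs of tumor-bearing mice, against 11964 to 36909 RPM in those of normal mice. Epithelial markers (5 of the miR-200 family) were 298.7 to 608.6 RPM, against 2006 to 3856 RPM. Muscle markers (3) were 1079 to 2129 RPM, against 3754 to 8030 RPM, and red cell markers (5) were 4504 to 9194 RPM, against 3442 to 134100 RPM with overlap and the highest in the third library of normal mice. Ovary and gonad markers (4) were 3.46 to 12.6 RPM, against 9.98 to 37.2 RPM, with overlap. Of these miR-202-5p had a higher mean, 6.76 against 1.87 RPM, and miR-135a-5p and miR-204-5p lower ones. Mesenchyme markers were split. miR-199a-5p (658 to 920, against 134 to 501 RPM) and miR-214-3p (172 to 236, against 2.78 to 47.0 RPM) were higher without overlap. miR-199a-3p was lower without overlap (1569 to 1759, against 2400 to 3503 RPM). The hepatocyte markers miR-122-5p and miR-802-5p overlapped. The imprinted Dlk1-Dio3 miRNAs (98), another large cluster, summed to 947 ± 170 and 20798 ± 6417 RPM (SD, n = 3 each). Their part in the result was not tested.

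The second comparison set ID8 tumors against normal tissue. miR-467a-5p and miR-669c-5p fell. miR-467a-5p, encoded by 10 hairpins in Sfmbt2, had 4.75, 4.13 and 9.35 RPM in tumors, against 38.6, 36.4 and 37.2 RPM in ovaries. The tumors were all lower, 6.15-fold by the means, with a log2 difference of -1.57 (SE 0.211, limma adjusted p = 0.00311). miR-669c-5p had 7.13, 12.4 and 7.79 RPM in tumors, against 36.7, 35.5 and 37.2 RPM in ovaries. It was 4.00-fold lower by the means without overlap, with a log2 difference of -1.29 (SE 0.207, limma adjusted p = 0.00508).

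Of 74 members 3 were tested, and 2 were called lower, where 10.4% of 357 miRNAs were, and 0 higher, where 13.2% were. All 3 passed the filter through the ovaries, as no member had a mean of 10 RPM in tumors. The filter thus set the direction of these calls. The third, miR-467e-5p, had 2.38, 2.07 and 7.79 RPM in tumors, against 22.2, 18.7 and 11.9 RPM in ovaries, a log2 difference of -0.98 (SE 0.245, limma adjusted p = 0.0245). It passed the fold threshold without the third tumor (-1.16) or the third ovary (-1.13).

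Of the 50 members with reads in either tissue, 46 had a lower mean in tumors and 4 a higher one, where 52.7% of the miRNAs with reads were lower. Groups did not overlap for 16 lower members (21.6% of 74), against 8.13% of all miRNAs, and for 0 higher ones, against 8.26%. Besides the called pair these 16 held miR-467c-5p at 2.75 and 11.0 RPM, miR-669a-5p at 2.10 and 8.99 RPM, miR-669p-5p at 2.40 and 9.02 RPM and miR-669o-5p at 0.396 and 6.18 RPM (means in tumors and ovaries). By family they were 8 miR-669, 5 miR-467, 2 miR-466 and 1 miR-297 members. miR-669o-5p was picked after its values were seen.

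The tumors differed among themselves in tissue markers. Ovary and gonad markers, with miR-202-5p as the defining one, summed to 21.4, 22.7 and 800 RPM in the 3 tumors, against 1070 to 1536 RPM in normal tissue. The second tumor had the highest hepatocyte markers of the tissues, 2770 RPM. Summed leukocyte markers were 982 to 1854 RPM in tumors, against 495.99 to 752 RPM in ovaries. Among them miR-150-5p went the other way, at 138 to 221 RPM in tumors, against 222 to 254 RPM in ovaries. The part of these cell types in the result was not tested, and both called members remained called without any 1 of the 6 libraries.

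The third pair of comparisons set EVs against tissue of mice in the same condition, and these comparisons share libraries with those above. In tumor-bearing mice miR-466i-5p was higher in EVs, at 29.0, 37.9 and 58.9 RPM, against 1.19, 0 and 1.56 RPM in tumors on 2 reads in all. Its mean was 45.8 times as high, and its log2 difference was 2.21 (SE 0.241, limma adjusted p = 0.000418). miR-467a-5p was at 0.70 (SE 0.194, limma adjusted p = 0.0195) and not called. Of the 2 members tested 1 was called higher, where 23.9% of 351 miRNAs were, and 0 lower, where 23.4% were. Both passed the filter through the EVs alone, with every tumor value under 10 RPM. The filter thus set the direction. Of 51 members with reads 35 had a higher mean in EVs (68.6%, against 50.1% of all miRNAs with reads) and 16 a lower one. Without overlap 8 were higher (10.8% of 74), against 11.0% of all miRNAs, and 0 lower, against 10.1%.

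In normal mice no member was called between EVs and ovary. miR-466i-5p had 21 reads in these EVs and 0 of 3369456 reads in ovaries, which allows up to 0.890 RPM, so it was at least 10.1-fold higher in EVs against 3 reads over the group. It did not pass the filter of 10 RPM in 3 libraries. Of the 7 members tested 0 were called higher, where 35.9% of 390 miRNAs were, and 0 lower, where 23.1% were, and edgeR and DESeq2 also called 0. With 10 RPM added, limma could not call a member lower whose ovary mean was under 10 RPM. This held for miR-467d-3p (7.09 RPM), miR-669a-5p (8.99 RPM), miR-669p-5p (9.02 RPM) and miR-669o-3p (9.44 RPM). At an unadjusted p under 0.05 the count was 0 in limma, 1 in edgeR and 1 in DESeq2. The limma log2 differences of the 7 members ran between -0.29 for miR-467e-5p and 0.45 for miR-669o-3p. Groups did not overlap for 4 higher members (5.41% of 74), against 16.2% of all miRNAs, and for 2 lower ones (2.70%), against 9.72%. Of 58 members with reads 36 had a higher mean in EVs (62.1%, against 59.5% of all miRNAs with reads) and 22 a lower one. With median-of-ratios scaling the split turned to 24 higher and 34 lower, against 523 and 528 over all miRNAs. Without overlap were then 2 members higher and 7 lower, against 186 and 200 of all miRNAs. The sum of all members in EVs was then lower without overlap, at 0.745 times that of ovary, as were miR-467 (0.668) and miR-669 (0.747).

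EVs and tissue differed from each other in the tumor effect for 1 of 8 members tested. For miR-466i-5p the log2 effect of the tumor was 1.34 larger in EVs than in tissue (SE 0.354, limma adjusted p = 0.00955), which put 1 member among the 13.7% of 422 miRNAs with a larger effect in EVs and 0 among the 27.5% with a smaller one. miR-466i-5p passed the filter of this fit through EVs alone, chiefly those of tumor-bearing mice. The call also depended on the model. In count models, with 2 reads in tumors and 0 in ovaries, the effect was -0.16 in edgeR (adjusted p = 0.520) and 0.19 in DESeq2 (adjusted p = 0.928). The same 2 tools called miR-467a-5p instead, at 2.18 in edgeR (adjusted p = 0.00402) and 1.85 in DESeq2 (adjusted p = 0.0117), where limma gave 0.64 (SE 0.351, adjusted p = 0.164).

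**Figure D5:**
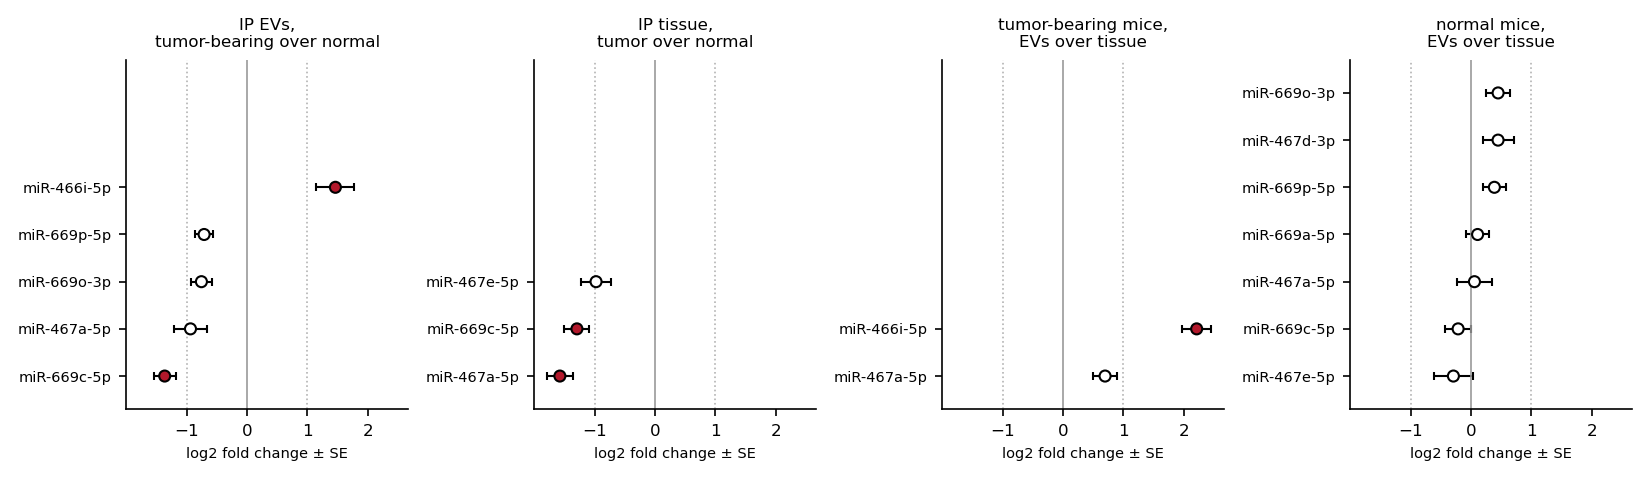
Log2 difference (log2(RPM + 10) scale, limma) with its SE for the members tested in the 4 IP comparisons, where filled red points passed the threshold and dotted lines mark a difference of 1. miR-466i-5p is called higher at 1.46 in EVs of tumor-bearing over normal mice and at 2.21 in EVs over tumors, and miR-467a-5p and miR-669c-5p are called lower at -1.57 and -1.29 in tumors over normal tissue.

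In the OT experiment the comparisons asked what changes within 4 days of orthotopic implantation and between the sites. No member was called in any of them, by limma, edgeR or DESeq2. At the liver surface miR-467a-5p had a lowest, median and highest value of 16.6, 39.7 and 65.0 RPM on day 4, against 16.9, 36.4 and 55.8 RPM on day 0. In the pelvis it had 33.4, 36.5, 22.6, 9.88 and 20.6 RPM on day 4, against 33.9, 40.1, 40.9, 29.9 and 40.4 RPM on day 0. The groups overlapped, and the pelvic log2 difference of -0.50 was the lowest of the 9 tested there. By replicate number the pelvic value was lower on day 4 in 5 of 5 pairs, and with the replicate as a block the limma adjusted p was 0.170 (SE 0.274).

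Of the 2 members called in the EVs of tumor-bearing IP mice, miR-669c-5p was tested here and not called. miR-466i-5p did not pass the filter of these fits, and fits with no filter did not call it. miR-669c-5p averaged 26.2 ± 12.5 RPM on day 4 and 28.2 ± 11.5 RPM on day 0 at the liver surface, and 21.6 ± 5.72 and 25.7 ± 8.51 RPM in the pelvis (SD, n = 5 each). miR-466i-5p averaged 5.38 ± 4.16 and 5.85 ± 3.34 RPM at the liver surface. In the pelvis it had 5.57, 7.31, 7.55, 3.29 and 34.4 RPM on day 4, against 5.27, 4.89, 13, 5.43 and 8.32 RPM on day 0. The single high value was 5 reads in a library of 145488 reads.

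Between days in the pelvis, 9 members were tested with differences up to 0.18 and limma adjusted p-values of 0.199 to 1.00. None was called higher, where 18.9% of 403 miRNAs were, or lower, where 5.21% were. At the liver surface, 10 were tested at -0.15 to 0.21 (limma adjusted p of 0.630 to 0.999), with none called where 15.5% of 407 were higher and 2.95% lower. There miR-466d-3p, at a day 0 mean of 9.59 RPM, could not be called lower. The difference between the 2 day effects was called for 0 of 10 members, where 0.224% of 446 miRNAs were called in each direction. At an unadjusted p under 0.05 the counts were 0, 0 and 0 in limma.

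Between sites, 10 members were tested on each day. On day 0 the differences of liver surface over pelvis ran between -0.08 and 0.42, the highest for miR-669a-3p, with none called where 0.779% of 385 miRNAs were higher and 0.779% lower. On day 4 the highest was 0.71 for miR-467e-5p (SE 0.307, limma adjusted p = 0.461), the 1 member at an unadjusted p under 0.05, and 0% of 424 miRNAs were called in either direction. miR-467e-5p had 32.7, 30.2, 22.7, 23.5 and 16.6 RPM in liver surface EVs, against 19.5, 19.5, 7.55, 6.58 and 6.87 RPM in pelvic EVs on that day. The groups overlapped, but by replicate number liver surface EVs were higher in 5 of 5 pairs. With the replicate as a block limma gave the same difference (SE 0.247, adjusted p = 0.123), so it was not called.

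On the RPM scale no member separated the groups in the 4 OT comparisons. Without overlap were 0 of 74 between days in the pelvis, against 4.23% of all miRNAs higher and 2.12% lower, and 0 at the liver surface, against 4.82% and 1.06%. Between sites it was 0 on day 0, against 0.463% higher and 0.793% lower, and 0 on day 4, against 0.132% and 0.198%. With median-of-ratios scaling miR-467a-5p was lower without overlap between pelvic days and miR-467e-5p higher without overlap between sites on day 4, 1 member in each. Over all miRNAs 65 were then lower between pelvic days and 5 higher between sites on day 4. Comparisons of days and of sites share libraries. Hepatocyte markers (3 miRNAs) were 95.7 to 22272 RPM on day 4 and 1298 to 175315 RPM on day 0 at the liver surface, against 0 to 1237 and 9.78 to 401 RPM in the pelvis. The lowest sum of the OT day 0 libraries, 111 RPM at the liver surface in replicate 3, stood in the library with the highest hepatocyte markers (175315 RPM) and red cell markers of 139068 RPM. Their part in that value was not tested.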

How the data were processed

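Small RNA libraries of 20 OT and 6 IP CNF sheet EV samples and 6 tissues were made by the authors with NEBNext reagents, after a Norgen kit for EVs and miRNeasy for tissue. Reads were assigned to miRBase 22 in CLC Genomics Workbench 9.5.3 with up to 2 mismatches, and the authors deposited the values as RPM. The RPM steps returned whole reads for 100% of values within 0.001. On these reads edgeR called 86 miRNAs higher and 114 lower between IP EVs and 59 higher and 33 lower between IP tissues. Samples were grouped by their labels, and 0 of 52 replicate pairs were identical. Members and lists were chosen with earlier results of these data known.

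Values were tested as log2(RPM + 10) with limma 3.58.1 (trend) in R 4.3.3, on the groups compared, after a filter of 10 RPM in as many libraries as the smaller group holds. Adjusted p-values are Benjamini-Hochberg over all miRNAs tested. A fold change on this scale understates the change of low miRNAs. In a comparison of 2 groups a call of lower therefore needed a mean above 10 RPM in the reference group. A call of higher needed one above 10 RPM in the tested group. Calls needed an adjusted p under 0.05 and a log2 difference beyond 1 in size. There were 8 comparisons and 2 interactions. Named were every called member, the 4 highest of each family and all members with a group mean of 10 RPM, plus those said to be chosen later. Alternatives were pseudocounts of 1 and 50, filters of none and 100 RPM, median-of-ratios scaling, edgeR 4.0.16 and DESeq2 1.42.0 on recovered reads, the library series as a covariate, a replicate block, and leaving out each library. Tables and figures used Python 3.11.15, pandas 2.3.3 and matplotlib 3.10.9.

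The fits were tested on simulated data with a spread that was set, not taken from the libraries. A 2-fold change was called in its direction for 31.8% of changed miRNAs in IP EVs and 43.9% between pelvic days. For a 4-fold change these were 90.9% and 92.5%. Of unchanged miRNAs 1.08% and 0.448% were called. An absence of calls is therefore weak evidence where a change is near 2-fold. Replicate numbers came from the labels. Deviations from the group means correlated above a cutoff of 0.1 in every same-number pair of 5 comparisons. These were IP EVs (3 pairs, 0.169 to 0.271), normal EVs and ovary (0.182 to 0.255), pelvic days (5 pairs, 0.189 to 0.631), sites on day 0 (0.397 to 0.704) and sites on day 4 (0.119 to 0.737). The other 3 comparisons did not reach it. Such correlations do not show that 2 libraries came from 1 animal, and tumor-bearing and normal mice are different animals. Limits from 0 reads use 3 reads and cover counting error only.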

Additional observations from a re-analysis of the deposited data

Results flagged for a closer look

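Single libraries stood far from the other 4 of their group in 8 of 96 groups of 5 checked (8.33%, where chance gives about 5%). miR-466i-5p was 34.4 RPM in pelvic EVs on day 4, replicate 5, with the others at 3.29 to 7.55 RPM. miR-669a-3p was 5.51 RPM in liver surface EVs on day 0, replicate 3, with the others at 24.7 to 32.3 RPM, and miR-297b-3p was 0 RPM in the same library, with the others at 2.67 to 3.31 RPM. miR-669p-5p was 7.13 RPM in pelvic EVs on day 0, replicate 5, with the others at 11.7 to 13 RPM, and miR-297c-3p was 0 RPM in replicate 1 of that group, with the others at 2.38 to 2.93 RPM. miR-669c-3p was 3.29 RPM in pelvic EVs on day 4, replicate 4, and 1.92 RPM in liver surface EVs on day 4, replicate 1, with 0 RPM in the others of both groups. miR-297b-5p was also 3.29 RPM in that pelvic library, with 0 RPM in the others. The values of miR-669c-3p and miR-297b-5p were 1 read each.

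The effect of the tumor on miR-466i-5p differed between EVs and tissue by 1.34 on the log2(RPM + 10) scale, in an interaction term of limma (adjusted p = 0.00955).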

How the results depend on the processing

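Counts of called members depended most on the pseudocount. With 50 RPM they were 0 in IP EVs, tumor tissue over normal, EVs over tumor and the tumor effect of EVs against tissue, as a larger pseudocount shrinks every difference by construction. With 1 RPM they were 5 in IP EVs, 2 in EVs over tumor and 0 in the tumor effect. With edgeR they were 4 in IP EVs and 2 in EVs over tumor, and with DESeq2 2 in EVs over tumor, while median-of-ratios scaling gave 2 in the tumor effect. In IP tissue, 3 in place of 2 were called with a pseudocount of 1 RPM, edgeR, DESeq2 and median-of-ratios scaling. The tumor effect on miR-466i-5p reversed to -0.16 with edgeR and was 1.41 at a pseudocount of 1 RPM (limma adjusted p = 0.157). Leaving out 1 library at a time gave 2 to 3 called members in IP EVs, 2 to 3 in tissue, 1 to 1 in EVs over tumor, 1 to 1 in the tumor effect and 0 to 0 in the other 6. A replicate block left these counts at 2, 2, 1 and 1 and changed no other call. The library series as a covariate left all 5 OT counts at 0, and no filter left all 10 counts as they were. With a filter of 100 RPM no member was tested.

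Median-of-ratios scaling changed the share of higher among all calls to 46.9% in IP EVs (31.0% on the RPM scale), 45% in normal EVs over ovary (60.9%), 53.2% for the pelvic days (78.4%), 54.9% for the liver surface days (84.0%), 33.3% between sites on day 0 (50%, of 6 calls each) and 48.8% in the tumor effect (33.3%). The median log2 difference over all tested miRNAs shifted to 0.04 (0.50) in normal EVs over ovary, -0.10 (0.18) and -0.08 (0.20) for the pelvic and liver surface days, -0.03 (-0.50) in the tumor effect, -0.01 (-0.15) between sites on day 0 and 0.01 (-0.10) in EVs over tumor. It moved 11 of 40 group means of the all-member and family sums by more than 1 SD. Members under 10 RPM rest on a few reads, and most were not tested.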

Other observations

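Libraries of tumor-bearing EVs held 33 to 38 members with reads, against 39 to 43 in normal EVs, and tumors held 13 to 23, against 37 to 42 in ovaries. Thinned to 132483 reads, the size of the shallowest library, these were 8 to 11 against 14 to 22 in EVs and 3 to 6 against 13 to 21 in tissue. The 5′ arms took 70.7% of the member RPM in EVs of tumor-bearing mice, against 64.6% in those of normal mice, and 62.3% in tumors, against 73.8% in ovaries. Without miR-466i-5p the direction in EVs turned, with 56.2% in tumor-bearing mice, against 63.3% in normal mice.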
